A study of Bos taurus with 46 samples.

Results

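The genes described here are those of the WC1 receptors and of the gamma-delta (γδ) T cell programme in the blood of pregnant heifers. They were chosen by name from the table of read counts on NCBI genes: every gene whose symbol begins with WC1, plus *CD163L1*, *SOX13*, *GATA3* and *CD2*. This gave 9 of the 30675 genes in the table, namely *WC1.3*, *WC1-12*, *WC1-10*, *WC1*, *WC1-8*, *CD163L1*, *SOX13*, *GATA3* and *CD2*. All 9 passed the filter on low counts over the 6 groups, which kept 16487 of the 25404 genes with a read.

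RNA of circulating leukocytes was sequenced from 23 heifers, each bled on D55 and again on D105 of gestation, which gave 46 libraries. The AI heifers (n = 8) had conceived by artificial insemination. The others carried embryos produced in vitro (IVP) and transferred to them, with fetuses of normal size in the IVP-Normal heifers (n = 6, labelled ARTnormal) and overgrown fetuses, that is, large offspring syndrome (LOS), in the IVP-LOS heifers (n = 9, labelled ARTLOS). All heifers were Angus crossbreds whose estrus had been synchronized with a progesterone-releasing device, prostaglandin F2 alpha and gonadotropin-releasing hormone. The IVP embryos were *B. t. indicus* × *B. t. taurus* crosses sired by a single bull, and some IVP heifers carried 2 fetuses, which was not modelled here. Heifers 604 and 664, both IVP-LOS, carried the 2 heaviest fetuses and were also compared as a pair with the other 21 heifers. The label set of a library is BACKUP for the 17 D105 libraries of AI and IVP-LOS and New for all others, so that day and set cannot be told apart within AI and within IVP-LOS. Likewise, on D105 the IVP-Normal heifers cannot be told apart from their set.

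WC1 receptors are transmembrane proteins of the scavenger receptor cysteine-rich (SRCR) family, encoded by a cluster of related genes in cattle. They sit on a large share of the γδ T cells in bovine blood, where they act as co-receptors of the γδ T cell receptor and bind bacterial surface structures. Different γδ T cells carry different WC1 receptors, and WC1-positive γδ T cells lack CD2. SOX13 and GATA3 are transcription factors, the first known for its role in γδ lineage development in mice and the second needed by T cells in general. CD2 is an adhesion receptor of alpha-beta T cells, natural killer (NK) cells and the WC1-negative γδ T cells.

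In NCBI RefSeq (assembly ARS-UCD2.0) the 5 WC1 genes and *CD163L1* lie on chromosome 5 in one stretch of 28 genes, which begins with *WC-7* and ends with *CD163L1*. *WC1-10*, *WC1.3*, *WC1* and *WC1-8* follow each other there with only the pseudogene *LOC112446751* between them. The counts were made on the assembly ARS-UCD1.2, so no coordinates are given. The same table lists WC1, WC1-2, WC1-5 and WC1.1 as older names of *CD163L1*, which is therefore treated below as the sixth gene of the WC1 family. The copies are alike in sequence, and reads that did not align to 1 place only were left out of the counts (7.72 to 9.55% of the reads of a library). The split of reads between the copies is therefore uncertain. Levels are given in CPM, the read count scaled to the library size with TMM factors. They are not divided by gene length, so a level of 1 gene is compared between libraries and never with that of another gene.

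Libraries held between 18692653 and 24502012 reads on genes. *PTPRC*, the pan-leukocyte marker, ranged from 1800 to 2427 CPM over the 46 libraries. The summed level of the 4 T cell receptor subunits *CD3D*, *CD3E*, *CD3G* and *CD247* ranged from 503 to 1519 CPM. The D105 library of heifer 604 stood apart, with summed platelet markers of 2545 CPM against at most 719 CPM in the other heifers on that day and summed red cell markers of 591 CPM against at most 153 CPM. In both D105 libraries of the pair, monocyte markers (219 and 406 CPM) were below those of all other heifers on D105 (at least 615 CPM), and 38.6 and 36.7% of the uniquely aligned reads on 1 gene or none lay on no gene, against 24.3 to 31.1% in the others. The part of these differences in the results below was not tested, except where values without the pair are given. In bulk RNA, fewer cells of a type and less RNA per cell cannot be told apart.

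*WC1.3* had the most reads of the WC1-named genes (103874 in all). On D55 its level in AI heifers was lowest at 23.4, with a median of 89.2 and a highest value of 181 CPM. In IVP-Normal heifers these values were 55.3, 98.4 and 166 CPM, and in IVP-LOS heifers 18.8, 101.4 and 192 CPM. The 3 groups overlapped over nearly their whole range. On D105 the lowest, median and highest values were 29.3, 71.2 and 188 CPM in AI, 52.7, 99.9 and 199.6 CPM in IVP-Normal, and 11.98, 112.5 and 263 CPM in IVP-LOS. Again no group stood outside another. Ordered by median, the levels ran from AI on D105 through AI on D55, IVP-Normal on D55, IVP-Normal on D105 and IVP-LOS on D55 to IVP-LOS on D105, and no neighbours in this order that were compared differed beyond the spread between heifers.

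**Figure D1:**
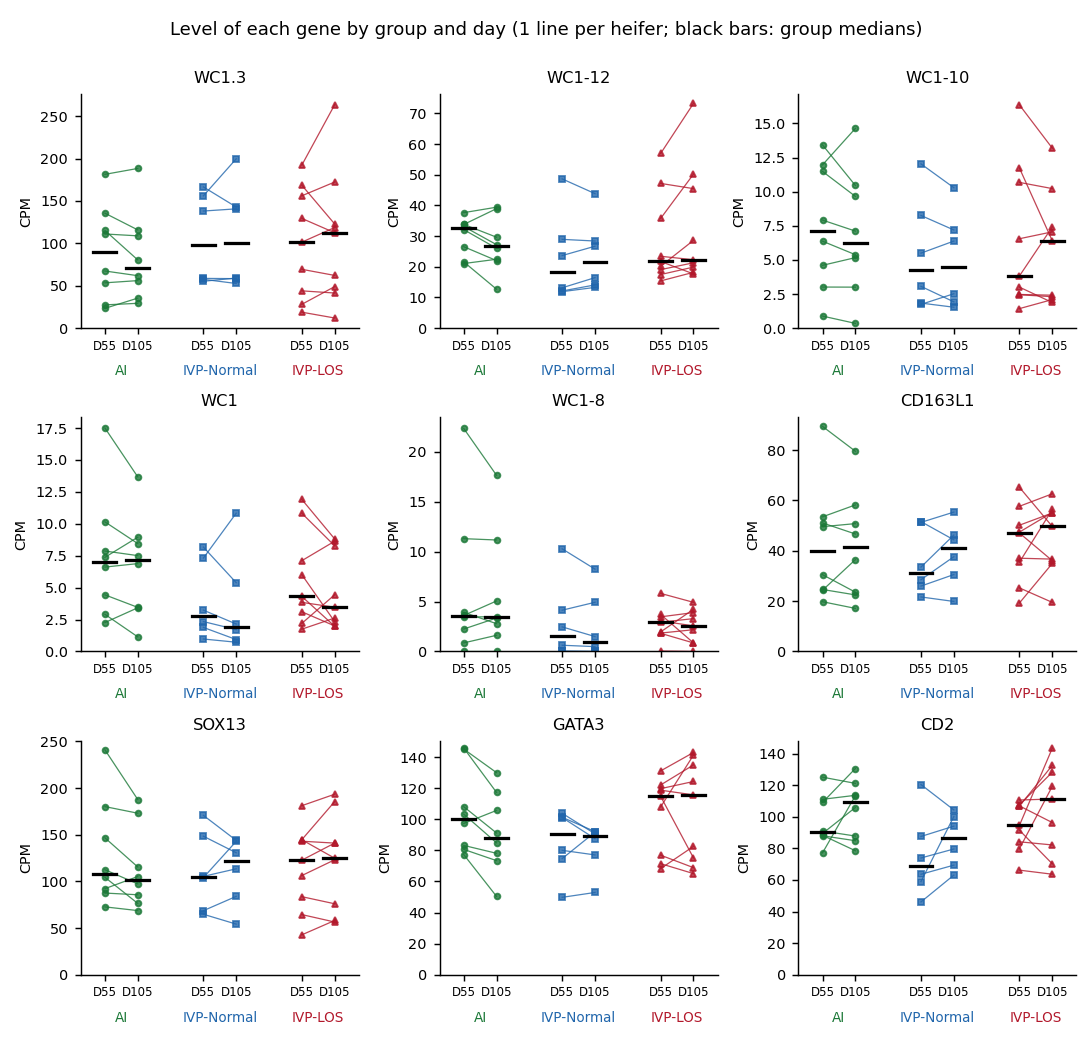
Level of each gene in CPM (vertical axes from 0) on D55 and D105 in AI (green circles), IVP-Normal (blue squares) and IVP-LOS (red triangles) heifers. Each line joins the 2 libraries of 1 heifer and black bars are group medians. For each gene the groups overlap on both days, and heifers that are high on D55 tend to be high on D105.

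The remaining WC1 genes also varied much more between heifers than between groups. *WC1-12* ranged from 11.9 to 56.9 CPM on D55 and from 12.7 to 73.2 CPM on D105 over the 23 heifers, and heifer 602 was highest on both days. *WC1-10* ranged from 0.885 to 16.4 CPM and from 0.352 to 14.6 CPM, with heifer 533 lowest on both days. The gene annotated *WC1* ranged from 0.973 to 17.5 CPM and from 0.721 to 13.7 CPM. In it heifer 590 was highest and heifer 628 lowest on both days. *CD163L1* ranged from 19.2 to 89.4 CPM and from 17.1 to 79.6 CPM, and heifer 590 was again highest on both days.

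*WC1-8* was close to absent in some heifers. In 4 of the 23 heifers it had 0 or 1 read in both libraries, whereas the other 19 heifers had 10 to 531 reads per library. These 4 were 1 of 8 AI heifers (533), 2 of 6 IVP-Normal heifers (633 and 669) and 1 of 9 IVP-LOS heifers (663). A count of 0 in these libraries allows a level of up to 0.123 to 0.140 CPM, the level of 3 reads. At the other end, heifer 590 had 531 reads on D55 and 400 on D105 (22.3 and 17.6 CPM). Heifer 647 had 11.3 and 11.2 CPM and heifer 688 had 10.3 and 8.25 CPM. The gene was thus near 0 or clearly read in the same heifers on both days, in all 3 groups. The 4 heifers were not low in all WC1 genes. Heifer 663 had the highest *WC1.3* of all heifers on both days (192 and 263 CPM), and heifer 633 ranked 6 on D55 and 2 on D105. In *WC1-10* the same 4 heifers held ranks 20 to 23 of 23 on D55, with 0.885, 1.84, 1.43 and 1.74 CPM in heifers 533, 633, 663 and 669. On D105 their *WC1-10* values were 0.352, 1.53, 2.09 and 2.52 CPM, at ranks 23, 22, 19 and 16. These are values of heifers chosen for their *WC1-8* counts and were not tested.

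*SOX13*, the gene with the most reads of the 9 (123818), ranged from 42.7 to 241 CPM on D55 and from 54.2 to 193 CPM on D105. Its medians were 108.4, 104.7 and 122.8 CPM in AI, IVP-Normal and IVP-LOS on D55 and 101.2, 122.1 and 124.8 CPM on D105. *GATA3* varied less, from 49.8 to 146 CPM and from 50.4 to 143 CPM. *CD2* had the narrowest range, from 46.1 to 125.1 CPM on D55 and from 63.1 to 143 CPM on D105. The ratio of the highest to the lowest heifer was 2.71 on D55 and 2.27 on D105 in *CD2*, against 10.2 and 21.99 in *WC1.3* and 18.5 and 41.6 in *WC1-10*. In *SOX13* it was 5.64 and 3.57, in *CD163L1* 4.65 on both days and in *WC1-12* 4.78 and 5.77. It was 17.99 and 18.96 in *WC1*. The spread between heifers was thus wide in *WC1.3*, *WC1-10* and *WC1* and narrow in *GATA3* and *CD2*. *WC1-12* and *CD163L1* lay between, below *SOX13* on D55 and above it on D105. The lowest *WC1-10* counts (21 and 8 reads) carry a large counting error.

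Treatment groups were compared within each day to ask whether the pregnancy type was reflected in these genes. edgeR's quasi-likelihood F-test with Benjamini-Hochberg adjustment over all genes called 0 of the 9 genes in any of the 6 treatment comparisons at an FDR of at most 0.05. The background is the same, since 0% of all genes were called in each of them. edgeR's likelihood ratio test and DESeq2 also called 0 of the 9. At an unadjusted p under 0.05, each of the 3 tests passed *CD2* alone, in AI against IVP-Normal on D55, where 9.92% of all genes passed that threshold with the first test. In the other 5 comparisons the count was 0, where 7.74% (AI against IVP-LOS) and 5.19% (IVP-Normal against IVP-LOS) of all genes passed on D55 and 9.57, 5.76 and 3.24% on D105 in the same order of comparisons. *CD2* there had lowest, median and highest values of 77.2, 90.2 and 125.1 CPM in AI and of 46.1, 68.8 and 120.4 CPM in IVP-Normal, so the groups overlapped. The log2 fold change of IVP-Normal over AI was -0.38 (SE 0.18, edgeR FDR = 0.503). On D105 the *CD2* medians were 109.6 and 86.8 CPM and the log2 fold change was -0.29 (SE 0.14, edgeR FDR = 0.514), with set and group not told apart.

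The largest fold changes between treatments were those of the gene with the fewest reads. *WC1-8* differed by a log2 fold change of -1.11 (SE 0.71) between IVP-LOS and AI on D55 and by -1.14 (SE 0.74) on D105, a comparison within the set BACKUP. Between IVP-Normal and AI these values were -1.03 (SE 1.04) and -1.14 (SE 1.02). The edgeR FDR was 0.707 and 0.755 against IVP-LOS and 0.726 and 0.661 against IVP-Normal. The highest AI values came from heifers 590 and 647, and the AI median was 3.52 CPM on D55 against 1.54 in IVP-Normal and 2.93 in IVP-LOS. Between IVP-Normal and IVP-LOS the largest change was that of *WC1* on D55 (0.53, SE 0.50) and of *WC1-12* on D105 (0.49, SE 0.37), at edgeR FDR values of 0.870 and 0.999. *WC1.3* changed by a log2 fold change between -0.04 and 0.38 in the 6 comparisons, with SE of 0.42 to 0.51.

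**Figure D2:**
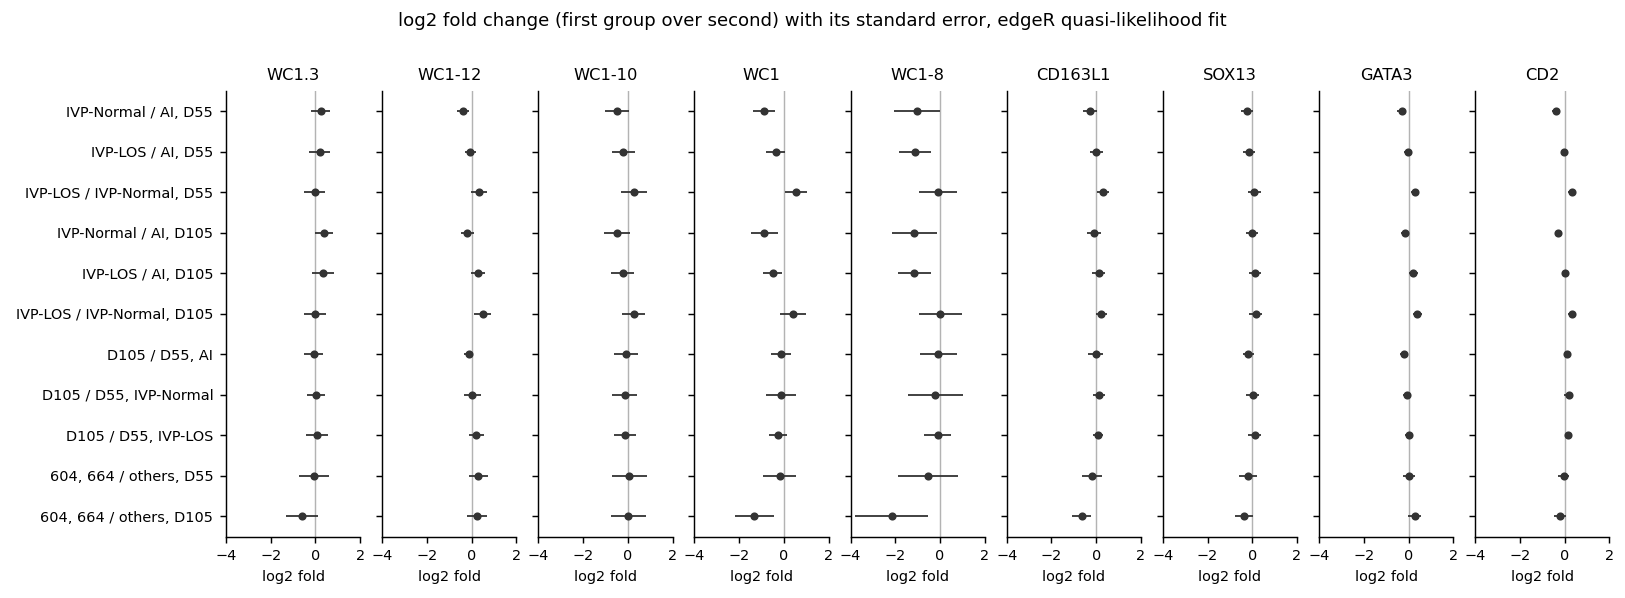
Log2 fold change (horizontal axes) with its standard error (bars) of each gene in 6 treatment comparisons, 3 comparisons of D105 with D55 and 2 comparisons of heifers 604 and 664 with the other 21, from edgeR's quasi-likelihood fit. None passed an FDR of 0.05. Within each comparison the bar is longest for *WC1-8*. It is shortest for *CD2* except in D105 against D55 of IVP-Normal, where *GATA3* has the shortest.

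D105 was compared with D55 within each group to follow the genes through early gestation. 0 of the 9 genes were called in AI, where 9.94% of all genes were called, 0 in IVP-Normal (2.45% of all genes) and 0 in IVP-LOS (0.251%). At an unadjusted p under 0.05 the count of the 9 genes was also 0 in each group, with edgeR's quasi-likelihood and likelihood ratio tests and with DESeq2, where 22.6, 13.3 and 12.6% of all genes passed in AI, IVP-Normal and IVP-LOS. *WC1.3* was higher on D105 in 4 of 8 AI, 3 of 6 IVP-Normal and 4 of 9 IVP-LOS heifers. Its log2 fold change was -0.08 (SE 0.43), 0.04 (SE 0.40) and 0.08 (SE 0.50). The largest changes among the 9 genes were those of *GATA3* in AI (-0.20, SE 0.18, edgeR FDR = 0.562), of *WC1-8* in IVP-Normal (-0.22, SE 1.23, FDR = 0.964) and of *WC1* in IVP-LOS (-0.25, SE 0.41, FDR = 0.857).

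Since each heifer gave both libraries, the day comparison was repeated with the heifer as a replicate block. The standard error of *WC1.3* fell to 0.10 in AI, 0.09 in IVP-Normal and 0.13 in IVP-LOS, at log2 fold changes of -0.01, 0.02 and 0.02. Under the block 0 of the 9 genes were called in each group, where 17.1, 5.5 and 1.07% of all genes were called. At an unadjusted p under 0.05, 2 of the 9 passed in AI and 0 in the other groups, where 31.3, 21.3 and 18.2% of all genes passed. The smallest FDR was that of *GATA3* in AI (log2 fold change -0.21, SE 0.07, edgeR FDR = 0.0651), lower on D105 in 7 of 8 AI heifers. *SOX13* in AI was also lower in 7 of 8 heifers (-0.16, SE 0.07, edgeR FDR = 0.141). AI heifers changed day and library set together. In IVP-Normal, with both days in 1 set, the blocked log2 fold changes were -0.04 (SE 0.09) for *GATA3* and 0.02 (SE 0.11) for *SOX13*.

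The interaction of day and group was tested to compare the groups in their change from D55 to D105. 0 of the 9 genes were called in any of the 3 interaction tests, with and without the heifer block, and 0% of all genes were. At an unadjusted p under 0.05 there were 0 of the 9 genes without the block, also with edgeR's likelihood ratio test and DESeq2, where 3.39% of all genes passed in IVP-Normal against AI, 4.97% in IVP-LOS against AI and 0.828% in IVP-LOS against IVP-Normal. With the block, *WC1-12* (0.36, SE 0.13) and *SOX13* (0.26, SE 0.11) passed it in IVP-LOS against AI, both at an edgeR FDR of 0.474, where 10.5% of all genes passed. In IVP-Normal against AI and in IVP-LOS against IVP-Normal 0 of the 9 passed with the block, where 6.23 and 2.77% of all genes did. The largest difference without the block was that of *WC1-12* in IVP-LOS against AI (0.35, SE 0.40), of *SOX13* in IVP-Normal against AI (0.20, SE 0.40) and of *WC1-12* in IVP-LOS against IVP-Normal (0.17, SE 0.53).

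The pair of heifers with the heaviest fetuses differed most in *WC1.3*, where 664 was lowest of all and 604 ranked 3 and 7 of 23. *WC1.3* was 168.5 and 122.8 CPM in heifer 604 on D55 and D105. In heifer 664 it was 18.8 and 11.98 CPM, the lowest of all heifers on both days. On *WC1-10* the order was turned, with 3.005 and 1.88 CPM in 604 and 10.7 and 10.2 CPM in 664. The summed level of the 6 WC1 family genes was 275 and 209 CPM in 604 (ranks 4 and 9) and 79.9 and 65.8 CPM in 664 (ranks 22 and 23). The edgeR quasi-likelihood test of the pair against the other 21 heifers called 0 of the 9 genes on D55 (0.0179% of all genes were called) and 0 on D105, where it called 21.1% of all genes. At an unadjusted p under 0.05 the count of the 9 genes was 0 on both days, also with edgeR's likelihood ratio test and DESeq2, where 4.72 and 37.4% of all genes passed. Leaving out 604 moved the D105 log2 fold change of *WC1.3* from -0.61 (SE 0.72) to -3.09 (SE 1.13, edgeR FDR = 0.103), and leaving out 664 moved it to 0.26 (SE 0.82). Each of these fits compares 1 heifer with 21 and takes the spread from the 21, on the assumption that the lone heifer varies like them. On D55 the same 2 values were -2.39 and 0.80 around -0.06 for the pair. The largest change was that of *WC1-8* on both days, at -0.54 (SE 1.35) on D55 and -2.17 (SE 1.62, edgeR FDR = 0.334) on D105. *WC1-8* was 0.855 CPM in 604 and 0.852 CPM in 664 on D105, from 15 and 16 reads, below 3.70 and 1.81 CPM on D55. Both values lie within the range of the other heifers.

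The level of a heifer on D55 carried over to D105. Over the 23 heifers the Pearson correlation of log2(CPM + 1) between the days was 0.95 for *WC1.3* (Spearman's rho 0.96), 0.93 for *WC1-10* (0.91), 0.90 for *SOX13* (0.89) and 0.89 for *WC1-12* (0.88). It was 0.86 for *WC1* (0.82), 0.83 for *CD163L1* (0.83), 0.81 for *GATA3* (0.77) and 0.65 for *CD2* (0.62). For *WC1-8*, r was 0.87 and rho 0.77 over the 19 heifers with more than 1 read. The permutation p was 1e-05 for *WC1.3*, *WC1-10*, *SOX13*, *WC1-12*, *WC1* and *WC1-8*, the smallest that 100000 permutations can give. It was 2e-05 for *CD163L1* and *GATA3* and 0.00067 for *CD2*, and the permutation p of rho was at most 0.00184 in the 9 genes. Adjusted over the 16487 genes kept, the p of r was 0.000169 for the first 6, 0.000277 for *CD163L1* and *GATA3* and 0.00379 for *CD2*, so that 9 of 9 genes passed 0.05, where 37% of all genes did (46% at an unadjusted p under 0.05). Without the 2 heifers farthest from the D55 median, r was 0.94 for *WC1.3*, 0.73 for *WC1-8* and 0.65 for *CD2*.

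**Figure D3:**
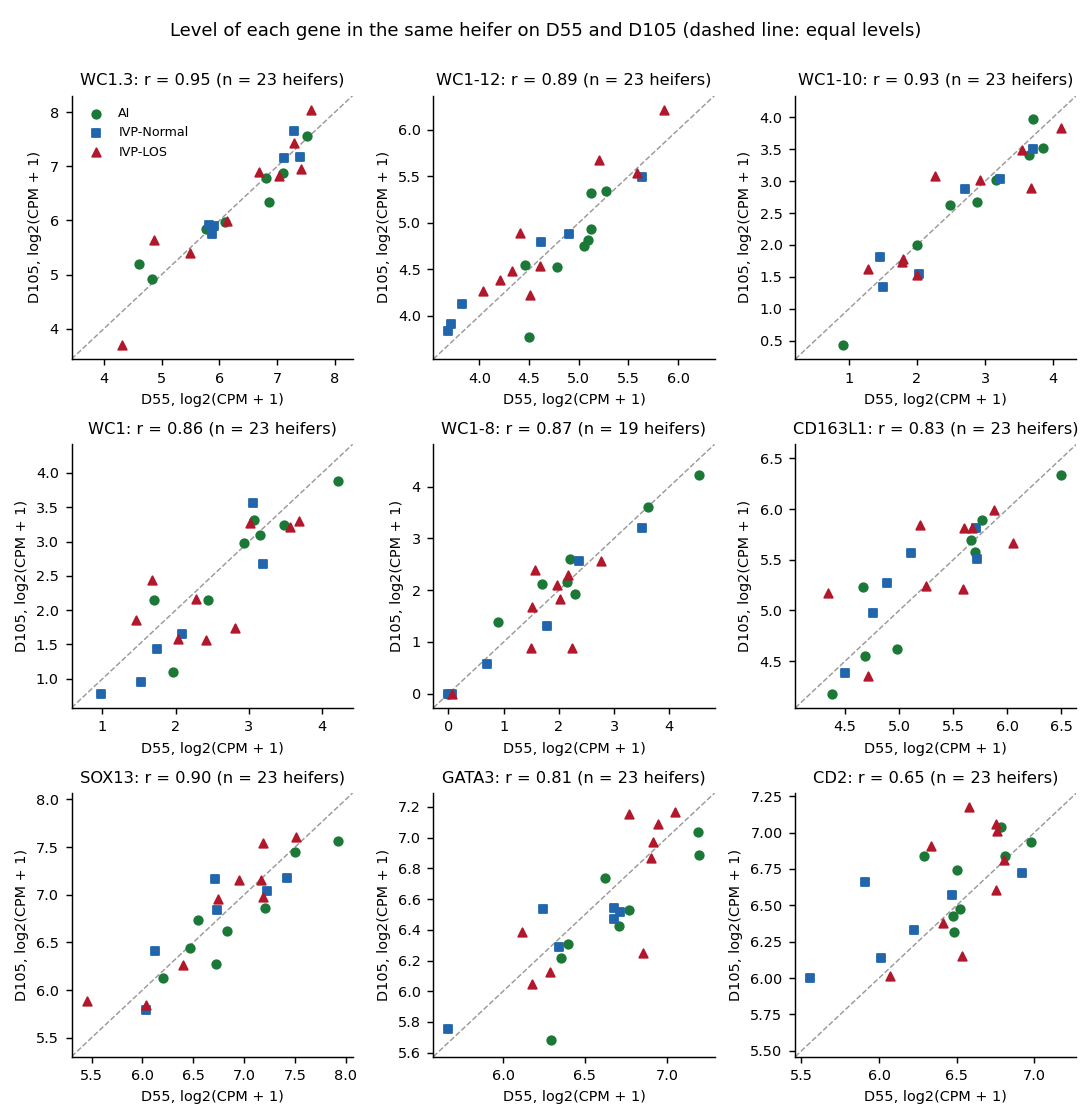
Level of each gene on D55 (horizontal axis) against D105 (vertical axis) in the same heifer, both as log2(CPM + 1), with AI as green circles, IVP-Normal as blue squares and IVP-LOS as red triangles. Points follow the dashed line of equal levels closely in *WC1.3* (r = 0.95) and loosely in *CD2* (r = 0.65). In the *WC1-8* panel the 4 heifers with at most 1 read sit at the lower left corner and are left out of its r.

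The same correlation had a median of 0.37 over all 16487 genes, with quartiles of 0.13 and 0.59 and a 95th percentile of 0.82. The median of the 9 genes was 0.89. *WC1.3* and *WC1-10* ranked above 99.3 and 99.1% of all genes, *SOX13* above 98.1% and *CD2* above 81.5%. Within groups r of *WC1.3* was 0.97 in AI (n = 8), 0.97 in IVP-Normal (n = 6) and 0.94 in IVP-LOS (n = 9). It was 0.94 over the 17 heifers whose D105 libraries were in BACKUP. *WC1-10* gave 0.98, 0.95 and 0.89 in the 3 groups. *CD163L1* gave 0.93 in AI, 0.86 in IVP-Normal and 0.67 in IVP-LOS, and *CD2* 0.55, 0.72 and 0.61. *WC1-8* gave 0.97 in the 7 AI heifers with more than 1 read and 0.36 in the 8 IVP-LOS heifers, and too few IVP-Normal heifers had reads of it. Taken relative to *CD3E*, a T cell receptor subunit, in the same library, r ranged from 0.57 (*GATA3*) to 0.93 (*WC1.3*). *CD3E* itself had an r of 0.70 between the days and enters both values of each gene, so these r are not independent of it. This last setting was chosen after the data were seen.

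The mix of reads over the 6 WC1 family genes was alike on both days of a heifer. Of the reads on the 6 WC1 family genes, *WC1.3* took between 18.2% (95% Clopper-Pearson interval 16.1 to 20.5, heifer 664 on D105) and 78.0% of a library, with a median of 52.2%. *WC1-12* took 5.31 to 34.8%, *CD163L1* 14.2 to 33.1%, *WC1-10* 0.297 to 15.5%, *WC1* 0.363 to 7.98% and *WC1-8* 0 to 7.33%. The intervals cover counting error only, and shares are of reads, which also follow gene length. The 10 other genes of this stretch of chromosome 5 that have counts do not enter the sums. They include *WC-7*, with a median of 32.8 CPM over the libraries, and *LOC786796*, with 7.46 CPM. The shares thus describe these 6 genes and not the whole stretch. In the same heifer the *WC1.3* share on D55 and D105 differed by a median of 2.16 percentage points and by at most 6.31 (heifer 557). Between the D55 library of 1 heifer and the D105 library of another, the median difference was 16.2 points and the largest 59.8. For *WC1-12* the medians were 2.17 and 8.04 points, for *WC1-10* 0.343 and 3.10 points, for *WC1* 0.541 and 2.05 points, for *WC1-8* 0.287 and 1.501 points and for *CD163L1* 1.35 and 5.73 points. In all 6 genes the median difference was smaller within a heifer than between heifers. Some heifers nevertheless shared a mix, such as 633 and 663 on D55 with 77.5 and 78.0% for *WC1.3*.

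*WC1.3* took the most reads of the 6 genes in 42 of the 46 libraries, and the same gene was in front on both days in 22 of 23 heifers. In heifer 648 (AI), *WC1-12* led on both days with 34.8 and 28.2% of the reads, against 21.6 and 25.3% for *WC1.3*. In heifer 664 (IVP-LOS), *CD163L1* led on D55 with 31.6% and *WC1-12* on D105 with 32.4%. The *WC1.3* share ranged from 21.6 to 68.1% over the AI libraries, from 32.1 to 77.9% over the IVP-Normal libraries and from 18.2 to 78.0% over the IVP-LOS libraries, so each group held heifers with a *WC1.3*-rich and with a *WC1.3*-poor mix.

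**Figure D4:**
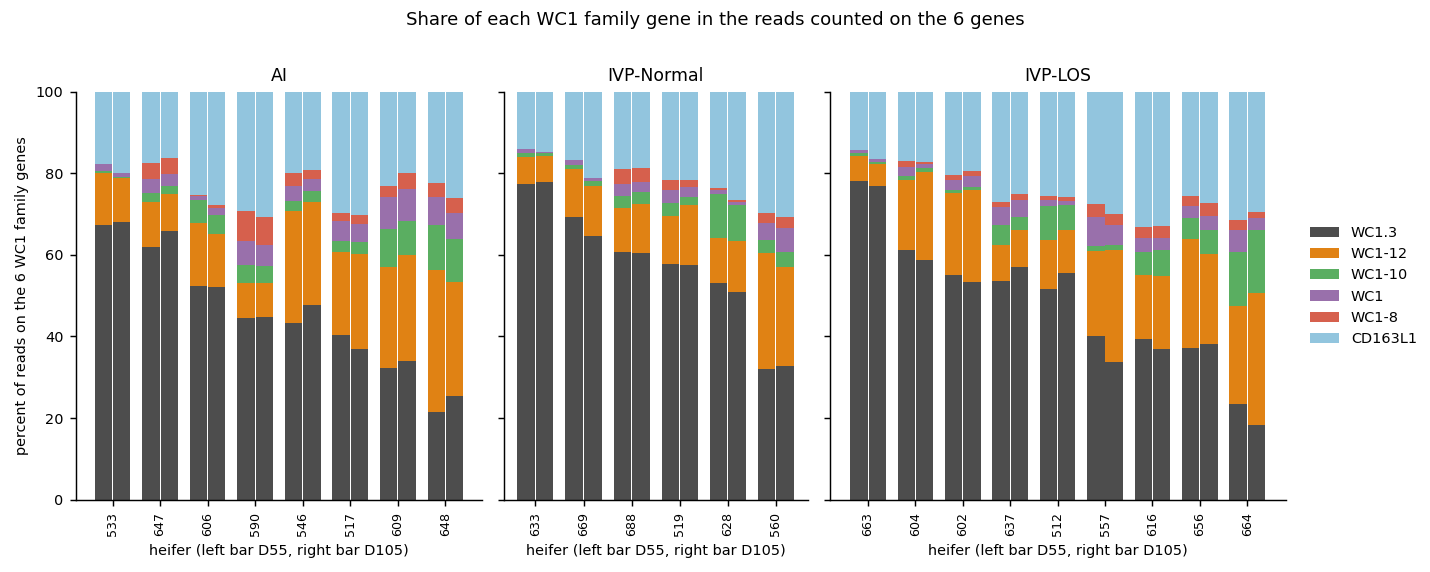
Percent of the reads on the 6 WC1 family genes (vertical axis) that fell on each gene, by heifer (horizontal axis, left bar D55 and right bar D105) and group, with heifers ordered by the *WC1.3* share on D55. The 2 bars of a heifer are alike, while *WC1.3* ranges from 18.2 to 78.0% between libraries.

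The genes were compared with *WC1.3* over heifers to see which followed it. With *WC1.3*, *SOX13* had an r of 0.77 on D55 and 0.81 on D105 (rho 0.73 and 0.85, permutation p = 4e-05 and 1e-05). *CD163L1* had 0.64 on both days (rho 0.58 and 0.60, permutation p = 0.00137 and 0.00094) and *GATA3* 0.57 and 0.53 (rho 0.61 and 0.69, permutation p = 0.00487 and 0.01). Adjusted over all 16486 other genes of a day, *SOX13* on D55 passed 0.05 (adjusted p = 0.0347), 1 of the 16 relations, where 0.146% of all genes passed and 12.9% had an unadjusted p under 0.05. It did not on D105 (adjusted p = 0.055, from the smallest p that the permutations can give), where 0% of all genes passed and 11% had an unadjusted p under 0.05. Without heifers 604 and 664 the D55 relation was 0.74 and no longer passed. The other 5 genes were weaker. *WC1-12* had an r of 0.14 and 0.05 with *WC1.3*, *WC1* 0.07 and -0.02, *WC1-10* -0.30 and -0.38 and *CD2* -0.04 and 0.35, at adjusted p of at least 0.481. *WC1-8* had 0.45 and 0.37 over 19 heifers (adjusted p = 0.387 and 0.555). On D105 the r of *SOX13* with *WC1.3* was 0.86 in the 17 BACKUP libraries and 0.70 in the 6 New libraries, that of *CD163L1* 0.71 and 0.41 and that of *GATA3* 0.57 and 0.68.

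Among the other pairs, given as a description over heifers that share library depth and cell makeup, *WC1* and *WC1-8* had an r of 0.83 on D55 and 0.82 on D105 over 19 heifers. These genes are next to each other on chromosome 5. *SOX13* and *CD163L1* had 0.89 and 0.83, *SOX13* and *GATA3* 0.83 and 0.78, and *CD163L1* and *GATA3* 0.80 and 0.67. *WC1-12* was closest to *GATA3* on D55 (0.64) and to *WC1* on D105 (0.59). *WC1-10* had no r above 0.33 with any other of the 9 genes. *CD2* was closest to *GATA3* (0.62 and 0.68).

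**Figure D5:**
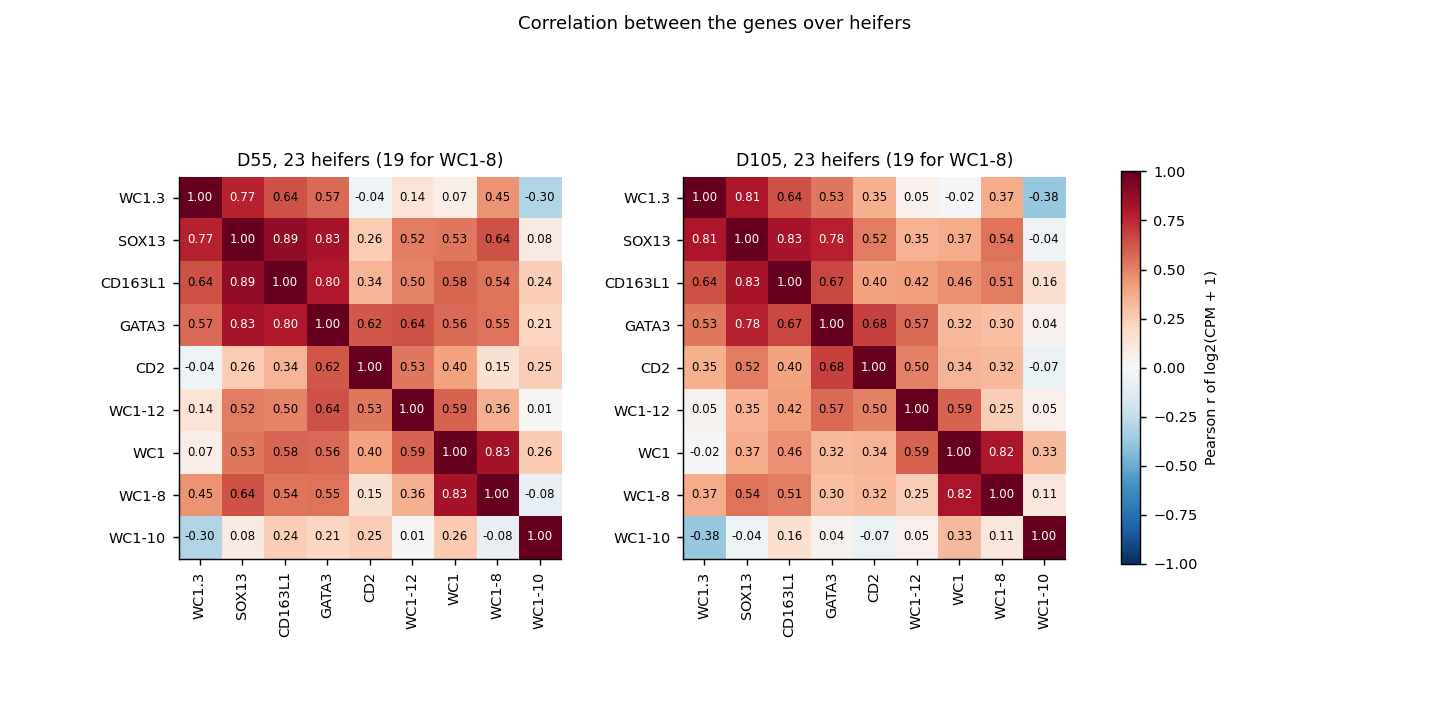
Pearson r of log2(CPM + 1) between each pair of the 9 genes over heifers on D55 (left) and D105 (right), from -1 (blue) to 1 (red), with 19 heifers for pairs with *WC1-8* and 23 for all others. *WC1.3*, *SOX13*, *CD163L1* and *GATA3* form a block of values from 0.53 to 0.89, *WC1* and *WC1-8* a second one (0.83 and 0.82), and *WC1-10* stands by itself.

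The genes outside the 9 were ranked by r of log2(CPM + 1) with *WC1.3* over the 46 libraries, 2 from each heifer. The highest were *CXCL12* (0.79), *OSBPL6* (0.78), *LOC515828* (0.77), *LOC101909551* (0.75) and *LOC513969* (0.75). By day, *CXCL12* had 0.82 on D55 and 0.77 on D105, beside 0.77 and 0.81 for *SOX13*, 1 of the 9. *CXCL12* is a chemokine that binds CXCR4. Of the genes outside the 9, *LOC515828* was also closest to *SOX13* (0.94) and to *CD163L1* (0.87), a comparison added after its values were seen. *LOC112446749* lies beside *WC1-8* in the gene order but for the lncRNA gene *LOC112446750*. Of the genes outside the 9 it was closest to *WC1-8* (0.69), also seen after the fact. Among the 9, *WC1* had a higher r with *WC1-8*, 0.83 on D55 and 0.82 on D105 over 19 heifers. Of the 10 other genes in the stretch of chromosome 5 that have counts, *WC-7* had an r with *WC1.3* of 0.70 on D55 and 0.68 on D105, *LOC112446753* 0.65 and 0.67, and *LOC786796* 0.67 and 0.56. The day-to-day r was 0.77 for *WC-7* and 0.98 for *LOC112446750*, a gene with 0 to 12.7 CPM. Of these neighbours, 5 to 8 passed the filter in a comparison and 0 were called in any of the 14.

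Levels were also set beside the summed markers of other cells. The summed level of 5 genes listed for alpha-beta T cells (*CD4*, *CD8A*, *CD8B*, *CD28* and *CD5*) had an r over heifers of 0.76 with *CD2* on both days. The receptor genes *TRAC*, *TRBC1* and *TRBC2* of that list were not found by symbol, so the sum is not specific to alpha-beta T cells. With *WC1.3* it had -0.29 on D55 and 0.15 on D105, and with *SOX13* -0.02 and 0.35. The other WC1 receptors had positive values, with 0.42 and 0.37 for *WC1-8*, 0.37 and 0.40 for *WC1*, 0.36 and 0.47 for *WC1-12*, 0.33 and 0.15 for *WC1-10* and 0.17 and 0.39 for *CD163L1*. With the 6 NK cell genes (*GNLY* of that list was not found by symbol), *CD2* had 0.78 and 0.76 and *WC1.3* -0.14 and 0.35. *WC1-12*, *WC1* and *WC1-8* had 0.35, 0.40 and 0.38 on D55 and 0.22, 0.20 and 0.31 on D105. These values were above that of *WC1.3* on D55 and below it on D105. *WC1-10* had 0.25 and 0.12 and *CD163L1* 0.23 and 0.38. All 9 genes had a negative r with the summed B cell markers on both days, from -0.71 to -0.08 on D55 and from -0.52 to -0.11 on D105. B cell markers ranged from 1440 to 5637 CPM over the libraries. Shares of RNA from other leukocytes thus moved with these levels, and their part in the differences between heifers was not tested.

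Genes that go with the γδ T cell receptor were followed in lists chosen with earlier results of these data known. Of the γδ receptor chains, only the constant region genes *TRGC3*, *TRGC4* and *TRGC6* of the gamma chain were found by symbol. The delta chain gene *TRDC* was not, so no delta chain was followed. In AI, *TRGC3* fell from a median of 66.1 CPM on D55 (range 43.9 to 85.2) to 42.4 CPM on D105 (27.5 to 58.6) and was lower in 8 of 8 heifers. Its log2 fold change was -0.70 (SE 0.17, edgeR FDR = 0.0126). *TRGC4* fell with it (-0.74, SE 0.18, edgeR FDR = 0.0152), also in 8 of 8 heifers. *TRGC6* had a log2 fold change of -0.70 (SE 0.31, FDR = 0.188). In IVP-Normal, where both days are in 1 set, *TRGC3* was lower on D105 in 6 of 6 heifers (-0.64, SE 0.33, edgeR FDR = 0.432), and in IVP-LOS in 8 of 9 (-0.48, SE 0.28, FDR = 0.499). With the heifer as a replicate block, 3 of 3 were called lower in AI (17.1% of all genes were called), where *TRGC6* reached -0.76 (SE 0.12, edgeR FDR = 0.00122). In IVP-Normal 2 of 3 were called (5.5% of all genes), namely *TRGC3* (-0.66, SE 0.17, edgeR FDR = 0.0456) and *TRGC6* (-0.72, SE 0.18, FDR = 0.0445), beside *TRGC4* (-0.60, SE 0.17, FDR = 0.0692). In IVP-LOS the block gave 0 of 3 (1.07% of all genes), with *TRGC3* at -0.58 (SE 0.13, edgeR FDR = 0.0664), and 3 of 3 between -0.60 and -0.54. The 3 gamma chain genes were thus lower on D105 in nearly all heifers, whereas *WC1.3* was lower in 12 and higher in 11 of the 23. *WC1* and *WC1-10* were each lower in 16 and higher in 7, and *WC1-8* was lower in 12 and higher in 9. *WC1-12* was lower in 10 and higher in 13, and *CD163L1* lower in 11 and higher in 12. The difference between the gamma chain and the WC1 family genes was not tested. Over the same days the summed neutrophil markers had medians of 984 and 2214 CPM in AI, 793 and 1634 CPM in IVP-Normal and 1003 and 1006 CPM in IVP-LOS. The eosinophil markers had medians of 45.1 and 83.0 CPM in AI, 48.9 and 101.1 CPM in IVP-Normal and 52.2 and 70.8 CPM in IVP-LOS. The neutrophil sum lacks *CSF3R* and the eosinophil sum lacks *EPX*, which were not found by symbol. The part of neutrophils and eosinophils in the lower gamma chain levels was not tested. The 3 copies are related genes, and their reads may be split between them. Over heifers the r of *TRGC3* with *WC1.3* was 0.15 on D55 and 0.35 on D105.

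Of 17 T cell receptor complex and signalling genes, 2 were called higher on D105 in AI, namely *CD28* (0.47, SE 0.12) and *LCP2* (0.28, SE 0.07). There 9.94% of all genes were called in either direction, and 1099 of 15248 were called higher. In the pair on D105, 3 of the 17 were lower, namely *CD3D* (-0.89, SE 0.29), *CD27* (-0.83, SE 0.29) and *LCP2* (-0.60, SE 0.20). There 21.1% of all genes were called in either direction, and 1596 of 16841 were called lower. The list's median log2 fold change was -0.49 beside -0.02 over all genes. Of 16 lineage factors, 2 were higher on D105 in AI, namely *LEF1* (0.54, SE 0.12) and *EGR2* (2.50, SE 0.61), beside the same 1099 of 15248 genes. *TBX21*, the T-bet factor of type 1 responses, was higher in the pair on D105 (0.83, SE 0.22), and *TCF7* was lower (-0.75, SE 0.24). All these changes had an edgeR FDR of at most 0.05, and the remaining genes of the 2 lists were not called. With the heifer block, which called 17.1% of all genes in AI, 5.5% in IVP-Normal and 1.07% in IVP-LOS, *LEF1* was also called higher in IVP-Normal (0.70, SE 0.10) and IVP-LOS (0.64, SE 0.11) and *CD28* in IVP-Normal (0.43, SE 0.09). Under the block *TBX21* was lower on D105 in AI (-0.51, SE 0.10) and IVP-Normal (-0.47, SE 0.11), and *SOX4* (-0.49, SE 0.12), *ID3* (-0.86, SE 0.18) and *RUNX3* (-0.20, SE 0.06) were lower in AI.

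Among the 15 effector and homing genes tested, *CCR7*, a lymph node homing receptor, was higher on D105 in AI (0.66, SE 0.16, edgeR FDR = 0.0139) and *GZMB*, a cytotoxic granule protease, in IVP-Normal (2.11, SE 0.46, FDR = 0.025), where 9.94 and 2.45% of all genes were called. With the heifer block (17.1 and 5.5% of all genes) *IL2RA*, the interleukin-2 receptor alpha chain, was also called higher in AI (1.06, SE 0.16) and IVP-Normal (0.96, SE 0.15), *GZMB* in AI (1.85, SE 0.43), and *GZMA* lower in IVP-Normal (-0.86, SE 0.21). In the pair on D105, the chemokine receptors *CCR2* (-1.71, SE 0.49) and *CCR6* (-0.97, SE 0.28) and the egress receptor *S1PR1* (-0.83, SE 0.26) were lower, where 21.1% of all genes were called in either direction. *CCR2* is also expressed by monocytes, whose markers were lowest in these 2 libraries. Of the other SRCR receptors, *SSC5D* was called higher in the pair on D105 (1.83, SE 0.44), 1 of 7 tested. With the heifer block *CD163*, a monocyte and macrophage receptor, and *LGALS3BP* were higher on D105 in AI (1.04, SE 0.26, and 0.37, SE 0.08). In the 6 treatment comparisons edgeR called 0 of 364 tests of these lists and the neighbours, a gene on more than 1 list counted once. Of these tests, 39 had an unadjusted p under 0.05, beside the 3.24 to 9.92% of all genes in these comparisons. In AI against IVP-Normal on D105, 6 of 15 T cell receptor genes and 3 of 6 SRCR receptors passed this threshold. So did 4 of 15 effector and homing genes, 1 of 3 gamma chain genes, 1 of 5 neighbours and 0 of 16 lineage factors. There 9.57% of all genes passed, and set and group cannot be told apart. In the 3 interaction tests edgeR called 0 of 187, with 2 at an unadjusted p under 0.05 (0.828 to 4.97% of all genes) and 7 with the block (2.77 to 10.5%).

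Over heifers, the lineage genes with the highest r with *WC1.3* were *BLK* (0.69 on D55 and 0.69 on D105), *SOX4* (0.67 and 0.67) and *MAF* (0.64 and 0.60). General T cell genes came near them, with 0.55 and 0.65 for *CD247*, 0.56 and 0.61 for *ZAP70* and 0.51 and 0.56 for *CD7*. These and the values below are extremes of their lists and were not tested as such. Of all genes, 12.9% on D55 and 11% on D105 had an unadjusted permutation p under 0.05 with *WC1.3*. *BLK* is a Src family kinase of B cells and of some γδ T cells, and SOX4 and MAF are transcription factors. *CCR6* had 0.59 and 0.63. *TBX21* had -0.56 and -0.39, *SYK* -0.32 and -0.59 and *CD5* -0.49 and -0.23. *IL17A* and *IL17F*, cytokines of a γδ T cell subset, were at or near 0, with at most 0.0425 and 0.0481 CPM in any library.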

How the data were processed

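Leukocyte RNA of 23 heifers was sequenced on D55 and D105 (46 libraries). The authors trimmed the reads, aligned them to ARS-UCD1.2 with HISAT2 2.1.0 and deposited raw HTSeq-count (union mode) counts per NCBI gene. The strand setting is not given in the sources used here. The Ensembl table was not used, since its identifiers could not be paired with names, and the summary lines of the count table (no gene, ambiguous, not unique) did not enter library sizes. The genes and lists were chosen with earlier results of these data known. Each comparison used edgeR 4.0.16 in R 4.3.3 on the compared libraries only, with TMM scaling, filterByExpr (minimum count 10), the quasi-likelihood F-test, Benjamini-Hochberg adjustment over all genes and an FDR of at most 0.05. The SE is the absolute log2 fold change divided by the square root of F. The fits were tested on simulated counts. Correlations used log2(CPM + 1) and 100000 two-sided permutations, adjusted over all genes kept in place of over the 9 genes, as first set down. Every gene of the set is named, with the largest change in each comparison and the 5 genes outside the set most like *WC1.3*. The titles give the heifer of each library, so days are paired by animal. After removing group means over the genes kept, libraries of the same heifer had a correlation of 0.28 to 0.83 (median 0.56), against a median of -0.02 between heifers. Replicates are separate animals. The values of 1 gene of the effector and homing list are not reported here. As alternatives served DESeq2 1.42.0, the likelihood ratio test of edgeR, upper-quartile scaling, no filter, all libraries in 1 fit, the heifer block, BACKUP only, a pseudocount of 0.1, and fits without 604, 664 or 637.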

Additional observations from a re-analysis of the deposited data

How the results depend on the processing

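In the 14 comparisons, the count of the 9 genes called was 0 in each of the 95 alternative settings, among them the heifer as a replicate block (0 genes called in 6 comparisons, with 4 gene tests at an unadjusted p under 0.05). Leaving out heifer 604 or 664 from the pair also gave 0 on both days, at the lowest and at the highest. The gene with the largest fold change in each comparison kept its direction in each setting, whereas *WC1.3* in the pair turned to 0.80 on D55 and 0.26 on D105 without heifer 664. The count of genes correlated between days stayed at 9 of 9, where 37% of all genes passed in the main analysis. Of the 16 relations with *WC1.3*, 1 passed in the main analysis, 2 with upper-quartile scaling, where *SOX13* also passed on D105 (r = 0.81), and 0 without heifers 604 and 664 (r of *SOX13* on D55 0.74, with 2 heifers fewer). Without these 2 heifers the r of *WC1-12* with *WC1.3* on D105 was -0.046. With the 4 heifers that have at most 1 read included, that of *WC1-8* on D105 was -0.080, a setting chosen after seeing the data. The heifer block moved the count of all genes called between days from 1516 to 2603 in AI, from 374 to 838 in IVP-Normal and from 38 to 162 in IVP-LOS, and that of the calls of list genes over the 3 groups from 8 higher and 2 lower to 16 and 11. *WC1-8*, *WC1* and the lowest *WC1-10* values rest on few reads, and small changes in them cannot be seen at this depth.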
